A study of Glycine max with 48 samples.

Results

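The fatty acid desaturase genes described here are 10 soybean genes, taken by identifier from the 57147 identifiers in each deposited table. They comprise 2 seed-type FAD2-1 genes (FAD2-1A, GLYMA_10G278000, and FAD2-1B, GLYMA_20G111000) and 4 FAD2-2 copies (GLYMA_19G147300, GLYMA_19G147400, GLYMA_03G144500 and GLYMA_09G111900). The other members are FAD3A (GLYMA_14G194300), FAD3B (GLYMA_02G227200), FAD3C (GLYMA_18G062000) and the stearoyl-ACP desaturase gene SACPD-C (GLYMA_14G121400). RNA was sequenced from 4 flower organs (sepal, anther, ovary and stigma) of Glycine max cv Magellan, in 3 libraries per organ and treatment and 48 in all. Plants under combined stress had day and night temperatures of 38 and 28 °C and 30% of the water available for transpiration. Heat alone was 38 and 28 °C with 100% water, water deficit alone was 28 and 24 °C with 30% water, and the control was 28 and 24 °C with 100% water. Treatments began at the first open flower, after 16 to 18 days in the pots, in chambers standing side by side. The assignment of chambers to treatments is not stated in the labels; effects of treatment and of a chamber used for it alone cannot be told apart. Each library pooled organs of 10 to 15 flowers from 8 to 10 plants.

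Desaturases set how many double bonds a fatty acid carries. In the plastid, stearoyl-ACP desaturases such as SACPD-C place the first double bond and make the oleoyl chain. In the endoplasmic reticulum, FAD2 enzymes turn oleate into linoleate and FAD3 enzymes turn linoleate into alpha-linolenate, the polyunsaturated chains that dominate plant membranes. In soybean, FAD2-1A and FAD2-1B are known as the seed copies whose loss gives high-oleic oil, the FAD2-2 genes are known for broader activity, loss of FAD3A, FAD3B and FAD3C gives low-linolenic oil, and loss of SACPD-C gives high-stearic seed oil. Membrane fatty acids are generally known to become less unsaturated when plants are kept warm. Several members are near-identical duplicates, and the handling of reads shared between copies is not stated in the labels, so the division of signal within a pair is uncertain.

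Values are FPKM (fragments counted for a gene, divided by its length and by the library's total), which can be set side by side between genes. In the control, the signal of the FAD2 members came almost wholly from FAD2-2 copies. GLYMA_19G147400 averaged 93.8 ± 6.96 FPKM in control sepal, 16.5 ± 2.87 FPKM in anther, 97.7 ± 5.53 FPKM in ovary and 102 ± 7.91 FPKM in stigma (mean ± SD, n = 3 libraries here and throughout). Only 2.13% of genes above 0 had a higher control mean in the sepal, and 12.6% did in the anther. GLYMA_03G144500 averaged 45.8 ± 6.83, 52.5 ± 2.44, 35.3 ± 1.39 and 36.0 ± 2.90 FPKM in control sepal, anther, ovary and stigma. The order of these FAD2-2 copies was thus reversed in the anther, where GLYMA_03G144500 was the higher in each of the 3 control libraries. GLYMA_09G111900 averaged 14.8 ± 0.945 FPKM in control anther and 1.04 ± 0.464, 0.009 ± 0.00886 and 0.936 ± 0.560 FPKM in control sepal, ovary and stigma. The organ tables were made separately, so these levels are a description with no test between organs.

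Among the linolenate-forming genes, FAD3B led in the pistil and FAD3A in the anther. FAD3B averaged 65.8 ± 3.50 FPKM in control ovary, 54.5 ± 8.53 FPKM in stigma, 27.2 ± 4.46 FPKM in sepal and 6.29 ± 1.85 FPKM in anther. FAD3A averaged 25.9 ± 3.35 FPKM in control anther, 20.8 ± 1.33 FPKM in sepal, 18.8 ± 2.04 FPKM in ovary and 15.8 ± 1.56 FPKM in stigma. The control values of FAD3A in sepal, ovary and stigma lay within 14.4 to 22.2 FPKM and overlapped between neighbouring organs. FAD3C averaged 12.0 ± 1.89 FPKM in control sepal, 6.46 ± 0.844 FPKM in ovary, 5.70 ± 0.845 FPKM in stigma and 1.23 ± 0.490 FPKM in anther.

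The seed copies were barely listed in any flower organ. FAD2-1A was at 0 in 38 of 48 libraries and reached at most 0.258 FPKM. FAD2-1B was at 0 in 37 of 48 libraries and reached at most 0.454 FPKM, in the ovary. GLYMA_19G147300 was at 0 in every sepal and anther library, and its highest value was 1.29 FPKM, in the stigma. SACPD-C stayed at or below 0.634 FPKM in sepal, 1.36 FPKM in anther and 1.44 FPKM in stigma, and reached 4.53 FPKM in ovary. Values of 0 also occurred in well expressed genes (in 264 of 13686 genes with an anther mean of at least 5 FPKM), so a gene at 0 is described as listed at 0.

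**Figure D1:**
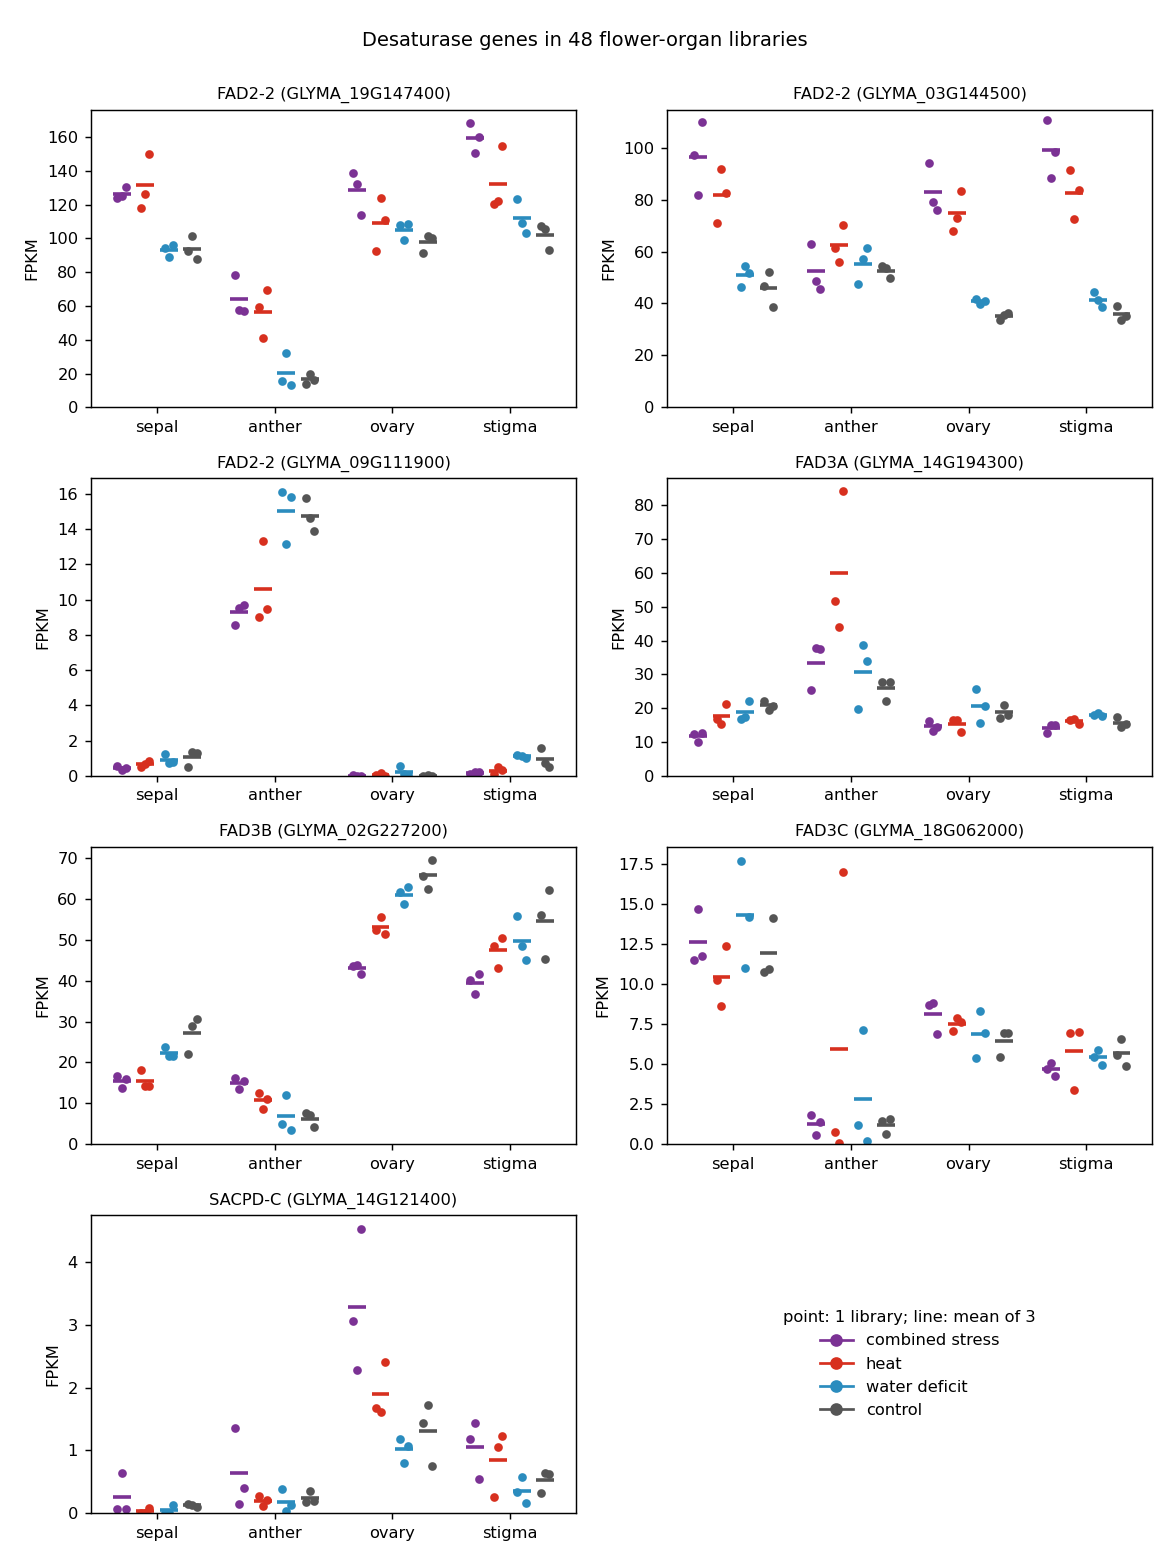
FPKM of 7 desaturase genes (vertical axes, linear, different scale in each panel) in sepal, anther, ovary and stigma; each point is 1 library, each line the mean of 3, and colours give combined stress, heat, water deficit and control. Under combined stress GLYMA_19G147400 and GLYMA_03G144500 stand above control in sepal, ovary and stigma and FAD3B below it, while in the anther GLYMA_19G147400 and FAD3B stand above control and GLYMA_09G111900 below it.

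Libraries differed in ways that bear on these genes. FPKM measures each gene's share of a library, and in the anther the log2 fold changes of the 28529 genes tested had a median of 0.61 for combined stress and 0.20 for heat. Genes at least 8-fold enriched in the anther (1756 genes without the members, chosen from these same libraries) held 34.6 ± 5.50% of FPKM in anthers under combined stress and 56.6 ± 3.25% in control anthers. In bulk tissue, fewer cells of a type and less RNA per cell cannot be told apart. In the other organs that median lay between -0.10 and 0.0054 for both stresses. Control sepal library 3 had 2.29% of its FPKM from anther-enriched genes, against 0.299% to 0.739% in the other sepal libraries; each member call in sepal against control held without it. Relative depth, estimated from the steps of low FPKM values, differed by at most 1.29-fold within sepal, 1.60-fold within anther, 1.54-fold within ovary and 1.46-fold within stigma; absolute depth is unknown. None of the identifiers matched the gene names in the reference table, so the organs could not be checked against named markers.

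Of the 10 members, 6 passed the filter on low values (a mean of at least 1 FPKM in a group) in sepal, anther and ovary and 7 in stigma. Under combined stress against control, 2 members were called higher and 2 lower in sepal, where 7.19% of all tested genes were called higher and 16.9% lower (limma, adjusted p under 0.05). In anther 2 were higher and 1 lower, against 51.8% and 10.7% of all genes. In ovary 3 were higher and 1 lower, against 11.0% and 16.5%, and in stigma 2 were higher and 1 lower, against 11.1% and 14.9%. Under heat against control, 2 were higher and 1 lower in sepal, against 4.11% and 7.19% of all genes. In anther 2 were higher and 0 lower, against 14.5% and 3.96%, in ovary 1 was higher and 1 lower, against 5.99% and 10.8%, and in stigma 1 was higher and 0 lower, against 6.77% and 7.16%. After rescaling each library by the median of its ratios to the organ's average, 14.7% of anther genes were higher and 20.7% lower under combined stress, and 7.55% higher and 7.03% lower under heat. In sepal the same rescaling gave 10.5% higher and 11.4% lower under combined stress, and 5.31% higher and 4.64% lower under heat.

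GLYMA_03G144500, an oleate desaturase gene of the FAD2-2 group, rose in stigma, ovary and sepal under combined stress and under heat and gave no call in the anther. In stigma it had 111, 88.4 and 98.5 FPKM under combined stress, 91.4, 72.5 and 83.7 FPKM under heat, 44.2, 41.2 and 38.6 FPKM under water deficit and 39.2, 33.5 and 35.3 FPKM in control. Every combined-stress and heat library lay above every control and water-deficit library. In stigma the change was 1.43 (SE 0.12, adjusted p = 2.20e-05) on the log2 scale for combined stress, a 2.76-fold ratio of means, and 1.17 (SE 0.12, adjusted p = 0.000484) for heat. In ovary it had 94.0, 79.3 and 75.9 FPKM under combined stress, 67.7, 72.9 and 83.5 FPKM under heat, 41.5, 39.9 and 40.9 FPKM under water deficit and 33.8, 35.6 and 36.5 FPKM in control. The ovary groups separated in the same way, with log2 fold changes of 1.21 (SE 0.10, adjusted p = 1.06e-05) for combined stress and 1.06 (SE 0.10, adjusted p = 0.000102) for heat. In sepal it had 97.1, 81.8 and 110.0 FPKM under combined stress, 71.2, 91.8 and 82.6 FPKM under heat, 46.5, 54.6 and 51.6 FPKM under water deficit and 46.8, 52.1 and 38.5 FPKM in control. Here too the combined-stress and heat libraries lay above all others, with log2 fold changes of 1.06 (SE 0.14, adjusted p = 0.000337) for combined stress and 0.83 (SE 0.14, adjusted p = 0.00411) for heat.

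In anther GLYMA_03G144500 had 63.0, 48.5 and 45.5 FPKM under combined stress, 61.3, 56.0 and 70.1 FPKM under heat, 47.5, 57.1 and 61.4 FPKM under water deficit and 54.3, 53.5 and 49.7 FPKM in control. The combined-stress and control values overlapped, with a log2 fold change of -0.02 (SE 0.15, adjusted p = 0.928), which is -0.63 relative to the median of all anther genes. After the median-of-ratios rescaling it was -0.79 (adjusted p = 0.0132), a lower call. Under heat the anther value was 0.24 (SE 0.15, adjusted p = 0.28), and the 3 heat libraries lay above the 3 control libraries.

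GLYMA_19G147400, the most abundant member in sepal, ovary and stigma, rose in all 4 organs under combined stress and most in the anther. In anther it had 78.3, 57.4 and 57.2 FPKM under combined stress, 59.2, 41.0 and 69.7 FPKM under heat, 15.8, 32.3 and 13.2 FPKM under water deficit and 13.9, 19.6 and 16.2 FPKM in control. No combined-stress or heat library overlapped a control or water-deficit library. The log2 fold change was 1.89 (SE 0.30, adjusted p = 0.000386) for combined stress, a 3.89-fold ratio of means, and 1.70 (SE 0.30, adjusted p = 0.0042) for heat. Relative to the median of all anther genes these were 1.29 and 1.50, and after the median-of-ratios rescaling 1.13 (adjusted p = 0.00592) and 1.41 (adjusted p = 0.00716). After that rescaling limma no longer called the combined-stress rise larger in anther than in sepal (difference 0.58, adjusted p = 0.057) or stigma (0.48, adjusted p = 0.127). The call against ovary held.

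In the other organs the changes of GLYMA_19G147400 were smaller. In stigma it had 169, 150.4 and 160.2 FPKM under combined stress, 120.3, 122 and 155 FPKM under heat, 123, 109 and 103 FPKM under water deficit and 107, 106 and 93.0 FPKM in control, with log2 fold changes of 0.64 (SE 0.12, adjusted p = 0.00233) for combined stress and 0.37 (SE 0.12, adjusted p = 0.0561) for heat. In sepal it had 124, 125 and 131 FPKM under combined stress, 118, 126 and 150.3 FPKM under heat, 94.4, 89.1 and 96.2 FPKM under water deficit and 92.5, 101 and 87.6 FPKM in control, with log2 fold changes of 0.43 (SE 0.10, adjusted p = 0.00882) and 0.48 (SE 0.10, adjusted p = 0.0106) for combined stress and heat. In both organs the 3 libraries under combined stress and the 3 under heat lay above the 3 control libraries. In ovary it had 139, 132 and 114 FPKM under combined stress, 92.3, 124 and 111 FPKM under heat, 108, 99.3 and 109 FPKM under water deficit and 91.3, 101 and 100.5 FPKM in control. The ovary call held for combined stress, at 0.39 (SE 0.11, adjusted p = 0.0225), and not for heat, at 0.15 (SE 0.11, adjusted p = 0.394), where heat and control libraries overlapped. It was lost without ovary control library 1 (0.34, adjusted p = 0.0806), combined-stress library 1 (0.33, adjusted p = 0.0804) or combined-stress library 2 (0.36, adjusted p = 0.067). The heat value in stigma became a call after rescaling to TPM (0.40, adjusted p = 0.0358), with a filter at 5 FPKM (adjusted p = 0.0451) and without water-deficit library 1 (adjusted p = 0.0496), and the heat call in sepal was lost with only the 2 groups compared (adjusted p = 0.0673).

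GLYMA_09G111900, the anther-enriched FAD2-2 copy, moved the other way. In anther it had 8.57, 9.54 and 9.70 FPKM under combined stress, 9.02, 13.3 and 9.46 FPKM under heat, 16.1, 13.2 and 15.8 FPKM under water deficit and 15.8, 14.6 and 13.9 FPKM in control. All combined-stress and heat libraries lay below all control libraries. It fell under combined stress, with a log2 fold change of -0.62 (SE 0.15, adjusted p = 0.00434) and a 0.628-fold ratio of means; relative to the median of all anther genes this was -1.23, and after the median-of-ratios rescaling -1.32 (adjusted p = 0.000799). Under heat the log2 fold change was -0.46 (SE 0.15, adjusted p = 0.0528), not a call; it was a call without anther heat library 2 (-0.62, adjusted p = 0.00832), with a filter at 5 FPKM (adjusted p = 0.0437) and after the median-of-ratios rescaling (-0.74, adjusted p = 0.0481). The summed share of the other anther-enriched genes under combined stress was likewise lower, as given above; its part in the result was not tested.

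In stigma GLYMA_09G111900 had 0.0965, 0.240 and 0.215 FPKM under combined stress, 0.0766, 0.474 and 0.322 FPKM under heat, 1.19, 1.15 and 1.00 FPKM under water deficit and 1.57, 0.741 and 0.500 FPKM in control. Anther-enriched genes held 0.502, 0.958 and 1.29% of FPKM in these stigma libraries under combined stress, 0.890, 2.14 and 1.71% under heat, 3.99, 2.83 and 3.45% under water deficit and 4.61, 2.27 and 1.78% in control. The means of both quantities were lowest under combined stress and next lowest under heat, and the part of anther material in the stigma value was not tested. The log2 fold change in stigma was -0.67 (SE 0.23, adjusted p = 0.0517) for combined stress against control. This became a call without stigma control library 3 (-0.84, adjusted p = 0.0326), without heat library 1 (-0.67, adjusted p = 0.0454), with a pseudocount of 0.1 (-1.77, adjusted p = 0.0438), with no filter (adjusted p = 0.0309), after the median-of-ratios rescaling (-0.67, adjusted p = 0.0477) and with no trend or robust moderation (adjusted p = 0.0231). In sepal its values were below 1.33 FPKM throughout, and combined stress against control gave -0.47 (SE 0.22, adjusted p = 0.134). There it passed the filter through the control group alone, the group with the highest mean, so that value is no independent test; without sepal control library 1, the lowest of the 3, it was -0.68 (adjusted p = 0.0345). Anther-enriched genes held 0.315, 0.311 and 0.299% of FPKM in sepal under combined stress and 0.362, 0.566 and 2.29% in control, with every combined-stress library below every control library, and their part in the sepal value was not tested.

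**Figure D2:**
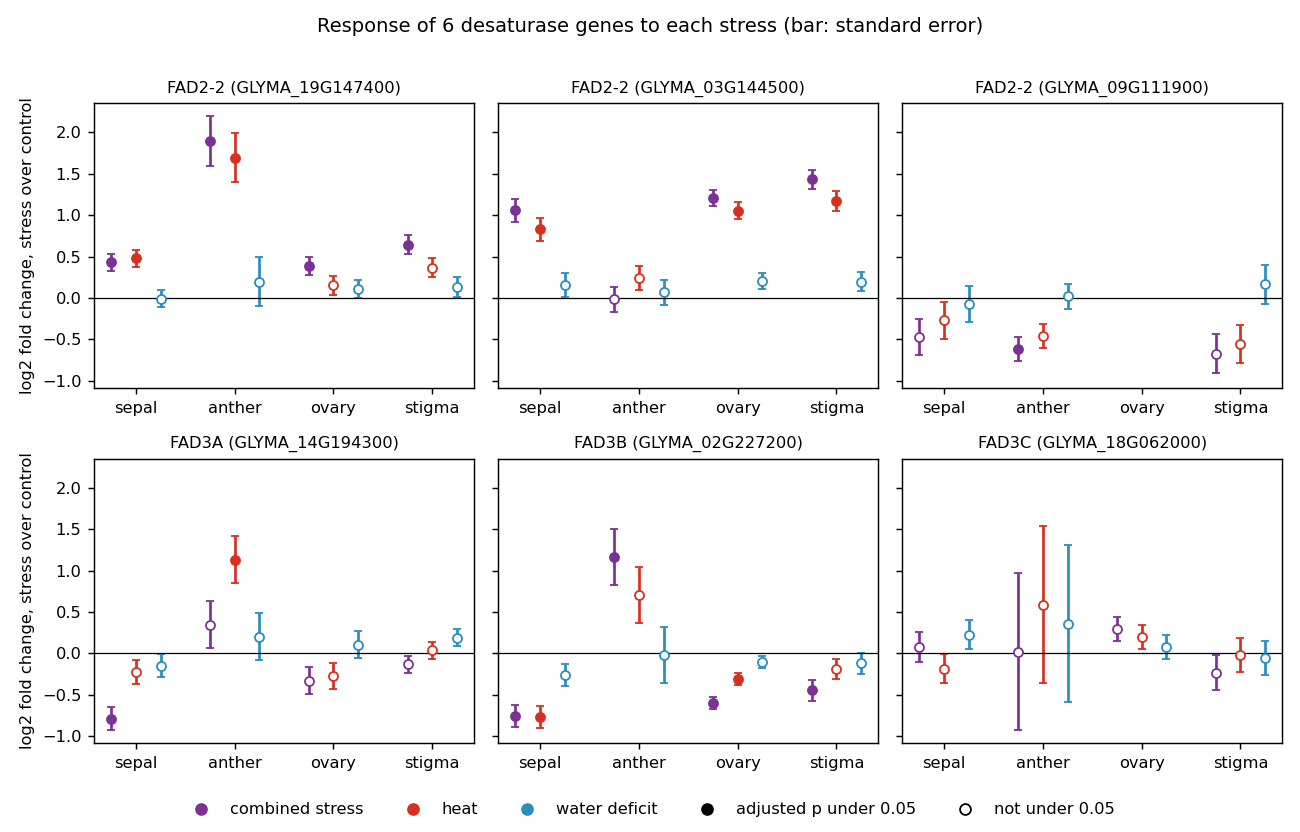
Log2 fold change of 6 desaturase genes for combined stress, heat and water deficit, each over control (vertical axis, on log2(FPKM + 1)), by organ; points are limma estimates, bars standard errors, filled points adjusted p under 0.05. GLYMA_03G144500 is above 0.8 in sepal, ovary and stigma and near 0 in anther under combined stress, while FAD3B lies below 0 in sepal, ovary and stigma and above 0 in anther.

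FAD3B, a linoleate desaturase gene, fell in sepal, ovary and stigma under combined stress and rose in the anther. In ovary it had 43.5, 43.9 and 41.6 FPKM under combined stress, 52.3, 55.5 and 51.4 FPKM under heat, 61.6, 58.6 and 62.7 FPKM under water deficit and 65.6, 62.4 and 69.4 FPKM in control. The combined-stress, heat and control libraries formed 3 ranges that did not overlap. FAD3B changed in ovary by -0.60 (SE 0.07, adjusted p = 0.000136) on the log2 scale for combined stress and -0.30 (SE 0.07, adjusted p = 0.0147) for heat, and the heat call was lost without ovary control library 3 (-0.27, adjusted p = 0.0532). In sepal it had 16.8, 13.9 and 16.0 FPKM under combined stress, 18.1, 14.4 and 14.2 FPKM under heat, 23.7, 21.5 and 21.7 FPKM under water deficit and 22.2, 28.9 and 30.6 FPKM in control. The sepal values under combined stress and heat lay below every control value, with log2 fold changes of -0.76 (SE 0.13, adjusted p = 0.00174) and -0.76 (SE 0.13, adjusted p = 0.00438).

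In stigma FAD3B had 40.1, 36.7 and 41.6 FPKM under combined stress, 48.5, 43.2 and 50.5 FPKM under heat, 55.8, 48.4 and 45.2 FPKM under water deficit and 56.0, 45.3 and 62.2 FPKM in control. The combined-stress libraries lay below the control libraries, and the heat libraries overlapped them. The log2 fold change was -0.45 (SE 0.13, adjusted p = 0.022) for combined stress and -0.19 (SE 0.13, adjusted p = 0.331) for heat. The combined-stress call was lost without control library 1 (-0.42, adjusted p = 0.0696), control library 3 (-0.35, adjusted p = 0.0797), combined-stress library 1 (-0.46, adjusted p = 0.0533) or combined-stress library 2 (-0.40, adjusted p = 0.0777).

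In anther FAD3B had 16.2, 13.4 and 15.4 FPKM under combined stress, 12.6, 8.68 and 11.0 FPKM under heat, 4.97, 12.1 and 3.46 FPKM under water deficit and 7.64, 7.06 and 4.18 FPKM in control. The combined-stress and heat libraries lay above the control libraries. The log2 fold change was 1.16 (SE 0.34, adjusted p = 0.0112) for combined stress, of which 0.56 remained relative to the median of all anther genes, and the call was lost after the median-of-ratios rescaling (0.45, adjusted p = 0.2995). For heat it was 0.71 (SE 0.34, adjusted p = 0.164), a call only without anther water-deficit library 2 among the libraries left out (0.71, adjusted p = 0.0488).

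FAD3A fell in the sepal under combined stress and rose in the anther under heat. In sepal it had 12.3, 10.0 and 12.6 FPKM under combined stress, 16.9, 15.2 and 21.3 FPKM under heat, 16.9, 17.4 and 22.1 FPKM under water deficit and 22.2, 19.5 and 20.7 FPKM in control. The combined-stress libraries lay below all others, with a log2 fold change of -0.79 (SE 0.14, adjusted p = 0.0019) against control; for heat it was -0.23 (SE 0.14, adjusted p = 0.32). In anther it had 25.3, 37.9 and 37.4 FPKM under combined stress, 51.6, 44.0 and 84.3 FPKM under heat, 19.8, 38.8 and 33.9 FPKM under water deficit and 27.8, 22.0 and 27.9 FPKM in control. The heat libraries lay above all control and combined-stress libraries, and combined stress and control overlapped.

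In anther FAD3A gave log2 fold changes of 1.13 (SE 0.28, adjusted p = 0.0195) for heat and 0.35 (SE 0.28, adjusted p = 0.306) for combined stress. The heat call was lost without heat library 3 (0.86, adjusted p = 0.0703), without control library 1 (1.19, adjusted p = 0.0526), without control library 2 (1.02, adjusted p = 0.0700) and after the median-of-ratios rescaling (0.85, adjusted p = 0.124). In ovary FAD3A had 16.2, 13.3 and 14.6 FPKM under combined stress and 17.2, 21.1 and 18.0 FPKM in control, and in stigma 12.8, 15.1 and 14.9 FPKM under combined stress and 17.5, 14.4 and 15.4 FPKM in control. Those differences were -0.33 (SE 0.16, adjusted p = 0.146) in ovary and -0.13 (SE 0.10, adjusted p = 0.353) in stigma.

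FAD3C gave no call in any organ against control. In sepal it had 11.5, 14.7 and 11.8 FPKM under combined stress, 10.3, 8.66 and 12.4 FPKM under heat and 10.8, 11.0 and 14.2 FPKM in control, with overlapping ranges. In anther it had 1.80, 0.607 and 1.41 FPKM under combined stress, 0.794, 0.106 and 17.0 FPKM under heat, 1.18, 7.15 and 0.236 FPKM under water deficit and 1.43, 0.668 and 1.58 FPKM in control. Heat library 3 and water-deficit library 2 stood far above every other anther library. Heat library 3 also held the highest FAD3A value. The share of FPKM from sepal-enriched genes was 0.0822% in that heat library and 0.143% in that water-deficit library, within the 0.0620% to 0.229% of the other anther libraries. Water-deficit library 2 was also the highest of its group for FAD3A, FAD3B and GLYMA_19G147400 and the lowest for GLYMA_09G111900. Carry-over from other organs was not tested. Without both libraries the heat difference of FAD3C in anther was -0.64 (adjusted p = 0.274), against 0.59 (SE 0.95, adjusted p = 0.703) with them, and FAD3A gave 0.86 (adjusted p = 0.0629).

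SACPD-C, which acts before the FAD2 step, rose in the ovary under combined stress from a low level. It had 3.07, 2.29 and 4.53 FPKM under combined stress, 1.68, 1.62 and 2.42 FPKM under heat, 1.18, 0.800 and 1.07 FPKM under water deficit and 1.43, 1.72 and 0.752 FPKM in control. The combined-stress libraries lay above the control and water-deficit libraries and overlapped the heat libraries. SACPD-C gave a log2 fold change of 0.89 (SE 0.22, adjusted p = 0.0105) for combined stress and 0.35 (SE 0.22, adjusted p = 0.308) for heat. In stigma it had 1.18, 1.44 and 0.546 FPKM under combined stress and 0.315, 0.643 and 0.621 FPKM in control, a difference of 0.41 (SE 0.27, adjusted p = 0.284); in stigma it passed the filter through the combined-stress group alone.

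Water deficit alone gave 0 calls among the members in every organ by limma, and 0 members had an unadjusted p under 0.05. Of all genes, 0.208% were called in sepal, 0.00351% in anther, 0.234% in ovary and 0.164% in stigma. An unadjusted p under 0.05 was found for 4183 of 33179 genes in sepal, 561 of 28529 in anther, 2625 of 33336 in ovary and 2869 of 33609 in stigma. The difference of largest size among the members was that of FAD3C in anther, at 0.36 (SE 0.95, adjusted p = 1). The lowest adjusted p was that of FAD3B in sepal, at -0.27 (SE 0.13, adjusted p = 0.44). GLYMA_03G144500 in ovary was higher in every water-deficit library than in every control library, and that difference was 0.20 (SE 0.10, adjusted p = 0.662).

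The effect of water deficit at high temperature, combined stress against heat, gave few calls. There was 1 in sepal, where 3.35% of all genes were called, and 0 in anther, ovary and stigma, where 33.8%, 0.789% and 1.13% were. In anther 7200 genes were higher and 2438 lower, and after the median-of-ratios rescaling 2.42% were higher and 11.2% lower. The call was FAD3A in sepal, whose combined-stress libraries lay below the heat libraries, at -0.57 (SE 0.14, adjusted p = 0.0489). It was lost in 15 of 20 alternatives, among them the removal of any sepal heat library, any combined-stress library, any control library, or water-deficit libraries 1 or 2, with adjusted p between 0.0529 and 0.176. In anther FAD3A was -0.79 (SE 0.28, adjusted p = 0.0518), with every combined-stress library below every heat library. That became a call after the median-of-ratios rescaling (-1.26, adjusted p = 0.0339), with a filter at 5 FPKM (adjusted p = 0.0407), with the replicate number as a block (adjusted p = 0.0429), and without anther heat library 2 (-0.98, adjusted p = 0.0447) or water-deficit library 1 (-0.79, adjusted p = 0.0311). After the rescaling GLYMA_03G144500 was also lower in anther under combined stress than under heat (-0.74, adjusted p = 0.0395). In ovary FAD3B lay lower in all combined-stress libraries than in all heat libraries, at -0.30 (SE 0.07, adjusted p = 0.0911).

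The effect of heat under low water, combined stress against water deficit, gave 14 calls. In sepal 4 members were called against 15.2% of all genes, in anther 3 against 61.0%, in ovary 3 against 21.3% and in stigma 4 against 16.7%. The 4 in stigma and the 14 include GLYMA_09G111900, which passed the filter there through the water-deficit group alone. That group is the higher of the compared groups, so this call is no independent test. Of the anther genes 14677 were higher and 2733 lower, and after the median-of-ratios rescaling 11.3% were higher and 18.1% lower; in sepal 1631 were higher and 3428 lower, and after rescaling 6.5% and 7.19%. GLYMA_03G144500 was higher under combined stress than under water deficit in sepal at 0.90 (adjusted p = 0.0017), in ovary at 1.00 (adjusted p = 7.22e-05) and in stigma at 1.24 (adjusted p = 0.000221). GLYMA_19G147400 was higher in anther at 1.70 (adjusted p = 0.000848), in stigma at 0.51 (adjusted p = 0.0122) and in sepal at 0.44 (adjusted p = 0.0126). FAD3B was lower in ovary at -0.49 (adjusted p = 0.000835) and in sepal at -0.50 (adjusted p = 0.0262), and higher in anther at 1.18 (adjusted p = 0.0109). SACPD-C was higher in ovary at 1.06 (adjusted p = 0.00562), and GLYMA_09G111900 lower in anther at -0.64 (adjusted p = 0.00392). FAD3A was lower in sepal at -0.64 (adjusted p = 0.00984), a call kept in 20 of 20 alternatives.

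The weakest of these calls were in stigma, where GLYMA_09G111900 was lower under combined stress than under water deficit at -0.84 (adjusted p = 0.0293) and FAD3A at -0.32 (adjusted p = 0.0446). The GLYMA_09G111900 call was lost when any of the 6 libraries compared was left out, with adjusted p between 0.0567 and 0.0819, and with the replicate number as a block (adjusted p = 0.0532), and the FAD3A call was lost in 16 of 20 alternatives, the block among them (adjusted p = 0.0729). In stigma GLYMA_09G111900 passed the filter through the water-deficit group alone, the group with the highest mean, so that call is no independent test; with a pseudocount of 0.1 it was -2.13 (adjusted p = 0.0281). In anther the FAD3B call was lost after the median-of-ratios rescaling (0.49, adjusted p = 0.281), and GLYMA_03G144500 became lower under it (-0.84, adjusted p = 0.0108). That rescaling gave 0.95 (adjusted p = 0.0182) for GLYMA_19G147400 in anther and -1.33 (adjusted p = 0.000907) for GLYMA_09G111900 there. In sepal the FAD3B call was lost after that rescaling (-0.42, adjusted p = 0.0578) and without water-deficit library 1, 2 or 3 or combined-stress library 2 or 3, with adjusted p between 0.0541 and 0.0983. In stigma the GLYMA_19G147400 call was lost without water-deficit library 3 (0.45, adjusted p = 0.0531). In ovary FAD3A, at -0.44 (adjusted p = 0.0721), became a call without water-deficit library 2 (-0.62, adjusted p = 0.0144), and GLYMA_19G147400, at 0.28 (adjusted p = 0.0927), after the median-of-ratios rescaling (0.32, adjusted p = 0.0356) and after rescaling to TPM (0.34, adjusted p = 0.0469).

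The interaction of heat and water deficit, which asks whether the combined effect departs from the sum of the separate ones on the log2 scale, gave 0 calls among the members in limma. Of all genes, 0.0422% were called in sepal, 0.28% in anther, 0.015% in ovary and 0.0% in stigma. At an unadjusted p under 0.05 stood 3 values, FAD3A in anther (0.0317) and stigma (0.0253) and SACPD-C in ovary (0.0398). Among all genes, 8206 of 28529 in anther, 2183 of 33609 in stigma, 2309 of 33336 in ovary and 2377 of 33179 in sepal stood there. The interaction values of all anther genes had a median of 0.33, and relative to it FAD3A stood at -1.32. After the median-of-ratios rescaling that median was -0.029, and 0% of anther genes were called higher or lower. The lowest adjusted p of the members was 0.139, for FAD3A in anther.

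Differences of response between anther and another organ were tested in 17 member values for each stress. For combined stress 11 of the 17 were called, where 62.4%, 56.8% and 52.0% of all genes were called against sepal, ovary and stigma, so the members' count is near the share of all genes. For heat 12 of the 17 were called, against 24.2%, 22.9% and 17.0% of all genes. The 12 were those of GLYMA_19G147400, GLYMA_03G144500, FAD3A and FAD3B against each other organ. For either stress the differences of a gene share its anther libraries, so these counts do not hold separate results. In the pairs without the anther 0 members were called by limma for either stress, where 4.47%, 5.2% and 0.0472% of all genes were called for combined stress in ovary minus sepal, stigma minus sepal and ovary minus stigma, and 1.67%, 2.26% and 0.022% for heat. At an unadjusted p under 0.05 stood 1 of those member values, FAD3A under combined stress in stigma minus sepal (0.66, adjusted p = 0.172). Under combined stress, GLYMA_19G147400 rose more in anther than in the other organs, by 1.25 to 1.51 on the log2 scale, and GLYMA_03G144500 responded less, by -1.45 to -1.07. FAD3B differed by 1.61 to 1.93 in the same direction as GLYMA_19G147400. The largest adjusted p of these was 0.000275. Under heat these genes and FAD3A differed between anther and all 3 other organs in the fit of 48 libraries, with adjusted p up to 0.031. That fit took 1 spread per gene over all organs, while the standard errors of these genes were largest in anther. With the 24 libraries of the 2 organs alone, FAD3B lost its heat calls against ovary (adjusted p = 0.0616) and stigma (adjusted p = 0.145). GLYMA_03G144500 lost that against sepal (adjusted p = 0.0735). Some heat calls were also lost with 1 replicate number left out, as given below. In the fit of all 48 libraries there were 17 calls in place of 23 after the median-of-ratios rescaling, with that of GLYMA_09G111900 in anther minus sepal under combined stress added. The share of all genes called in these organ differences after the rescaling was not computed, so the 17 cannot be set against it. Under combined stress GLYMA_19G147400 then differed by 0.48 to 0.71, with the calls against sepal (adjusted p = 0.057) and stigma (adjusted p = 0.127) lost, FAD3B by 0.88 to 1.09 with its calls held, and GLYMA_03G144500 by -2.23 to -1.96. FAD3A, at 1.14 from sepal and 0.68 from ovary before the rescaling, was at 0.27 (adjusted p = 0.571) and -0.11 (adjusted p = 0.829) after it. Under heat the rescaling ended the calls of FAD3B against ovary (0.73, adjusted p = 0.0700) and stigma (0.65, adjusted p = 0.124) and of FAD3A against stigma (0.82, adjusted p = 0.0798), and GLYMA_03G144500 was at -0.96 against sepal, in place of -0.59.

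Levels were also summed over the FAD2 members and over the FAD3 members. Other genes of these steps could not be named, so the sums and their ratio cover the members alone. The 6 FAD2 genes summed to 223 ± 17.1 FPKM in sepal under combined stress, 214 ± 22.3 FPKM under heat, 145 ± 3.14 FPKM under water deficit and 141 ± 13.5 FPKM in control. In stigma the FAD2 sum was 259 ± 20.5 FPKM under combined stress, 216 ± 22.2 FPKM under heat, 155 ± 13.3 FPKM under water deficit and 139.5 ± 9.60 FPKM in control. In all 4 organs the FAD2 sums of the combined-stress and the heat libraries lay above those of the control libraries. The 3 FAD3 genes summed to 65.9 ± 2.73 FPKM in ovary under combined stress, 76.0 ± 3.97 FPKM under heat, 88.5 ± 5.32 FPKM under water deficit and 91.0 ± 3.10 FPKM in control. In anther the FAD3 sum was 49.8 ± 5.77 FPKM under combined stress, 76.7 ± 31.5 FPKM under heat, 40.5 ± 16.3 FPKM under water deficit and 33.4 ± 3.54 FPKM in control. The FAD3 sum under combined stress lay below all control libraries in sepal, ovary and stigma and above them in anther. In anther the mean FAD2 and FAD3 sums under combined stress were 1.50 and 1.49 times those of control. The log2 fold changes of all tested anther genes had a median of 0.61 there, a general shift from which these rises were not separated. The sums are a description, with no test.

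The ratio of the FAD3 sum to the FAD2 sum does not depend on how a library is scaled. In ovary it was 0.294, 0.312 and 0.331 under combined stress, 0.473, 0.405 and 0.369 under heat, 0.617, 0.591 and 0.604 under water deficit and 0.705, 0.660 and 0.689 in control. In stigma it was 0.206, 0.238 and 0.235 under combined stress, 0.337, 0.324 and 0.304 under heat, 0.469, 0.480 and 0.475 under water deficit and 0.531, 0.473 and 0.636 in control. In sepal it was 0.184, 0.186 and 0.167 under combined stress, 0.238, 0.175 and 0.205 under heat, 0.410, 0.345 and 0.390 under water deficit and 0.394, 0.384 and 0.512 in control. In these 3 organs every combined-stress and heat library lay below every control library, and the mean ratio under combined stress was 0.456, 0.413 and 0.416 times that of control in ovary, stigma and sepal. In anther the ratio was 0.289, 0.449 and 0.482 under combined stress, 0.502, 0.478 and 0.753 under heat, 0.327, 0.566 and 0.416 under water deficit and 0.439, 0.339 and 0.422 in control. There the combined-stress and control ranges overlapped and the heat libraries lay above the control libraries, heat library 3 farthest.

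**Figure D3:**
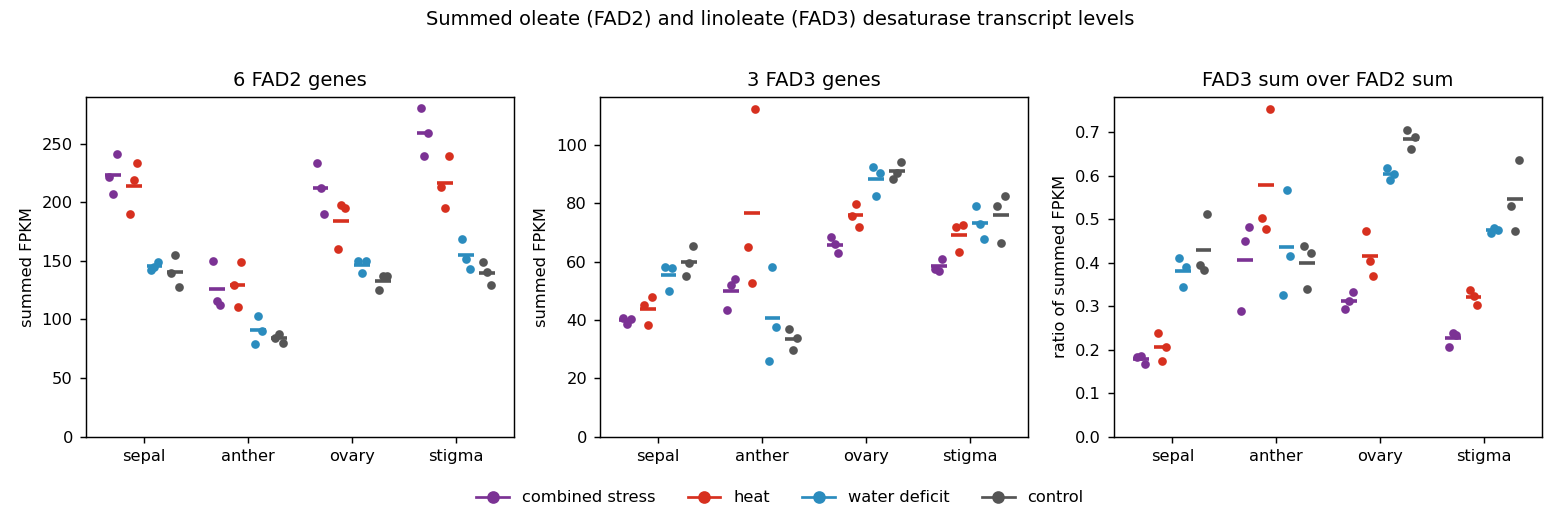
Summed FPKM of the 6 FAD2 genes (left), of the 3 FAD3 genes (middle) and their ratio (right) by organ; each point is 1 library, each line the mean of 3, colours give the treatments. The ratio under combined stress averages 0.179, 0.312 and 0.226 in sepal, ovary and stigma, against 0.430, 0.685 and 0.547 in control, while in anther it averages 0.407 against 0.400.

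The mix of member copies within each sum also shifted. In anther, GLYMA_19G147400 gave 51.0 ± 1.29% of the FAD2 sum under combined stress, 43.2 ± 5.25% under heat, 22.0 ± 8.67% under water deficit and 19.7 ± 2.94% in control. GLYMA_03G144500 gave 41.5% under combined stress and 62.7% in control there, and GLYMA_09G111900 gave 7.54% and 17.6%. The leading FAD2 member of the anther was thus GLYMA_19G147400 under combined stress and GLYMA_03G144500 in control. In ovary the share of GLYMA_03G144500 was 39.2 ± 1.58% under combined stress, 40.7 ± 3.27% under heat, 27.9 ± 0.637% under water deficit and 26.5 ± 0.495% in control. Its share was higher in every combined-stress and heat library than in every control library in sepal, ovary and stigma, and lower in anther. Of the FAD3 sum in anther, FAD3A gave 66.8 ± 7.48% under combined stress and 77.4 ± 4.76% in control, and in ovary FAD3B gave 65.3 ± 1.56% under combined stress and 72.3 ± 2.86% in control.

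**Figure D4:**
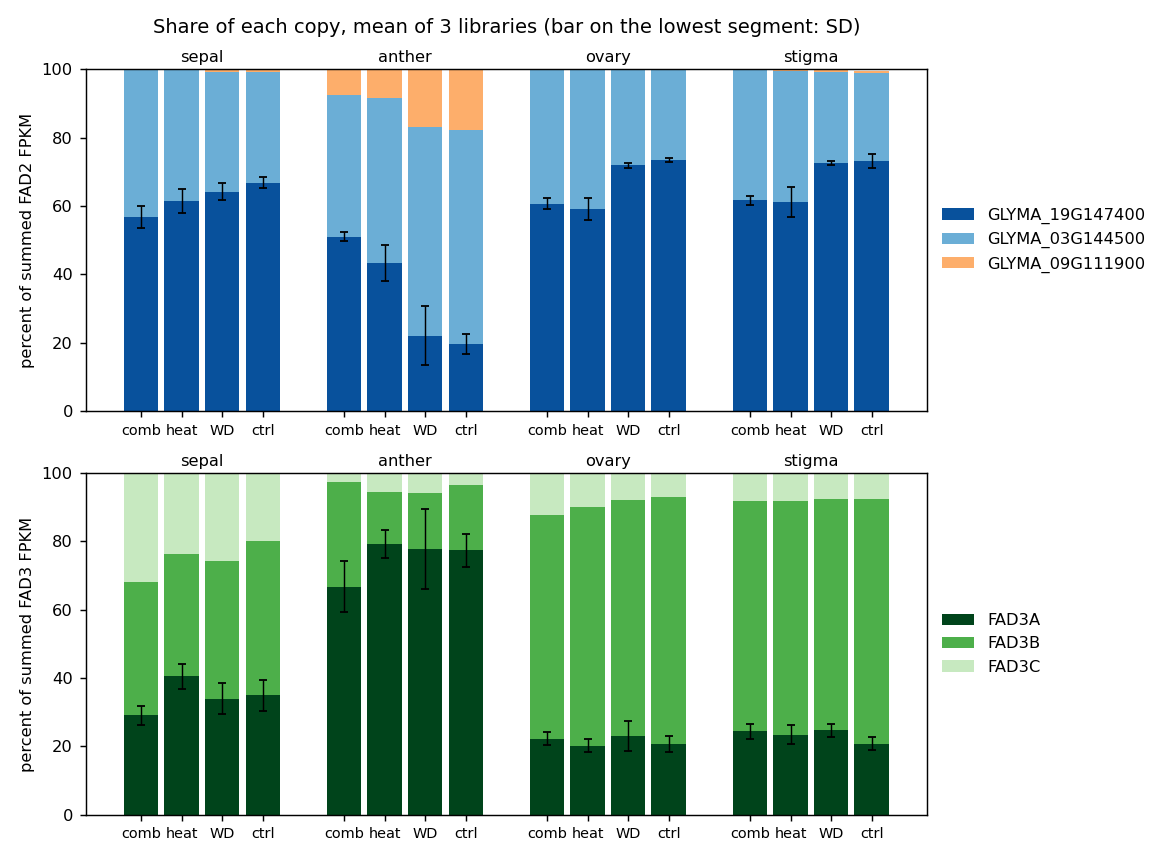
Share of each copy in the summed FAD2 FPKM (top) and FAD3 FPKM (bottom), in percent, mean of 3 libraries by organ and treatment (comb, combined stress; WD, water deficit; ctrl, control); the black bar is the SD of the lowest segment. GLYMA_19G147400 takes 51.0% of anther FAD2 FPKM under combined stress and 19.7% in control, and FAD3A takes most anther FAD3 FPKM under every treatment.

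Across the 16 group means the members followed different patterns. On log2(FPKM + 1), GLYMA_19G147400 and GLYMA_09G111900 ran opposite, with a Pearson r of -0.89 over 16 groups, while GLYMA_19G147400 and GLYMA_03G144500 gave 0.28. Under every treatment GLYMA_19G147400 was lowest in anther and GLYMA_09G111900 highest there. The r of -0.89 thus mixes organ levels with responses to stress and does not by itself show opposite responses. FAD3A and FAD3B gave -0.57. Among 28513 candidate genes with a mean of at least 5 FPKM in a group, the gene most like GLYMA_19G147400 was GLYMA_01G153600 (r = 0.989) and that most like GLYMA_03G144500 was GLYMA_07G130300 (r = 0.927). GLYMA_15G066500 was the most like GLYMA_09G111900 (r = 0.997), GLYMA_13G300300 the most like FAD3B (r = 0.995), GLYMA_02G103100 the most like FAD3A (r = 0.932) and GLYMA_02G010200 the most like FAD3C (r = 0.986). These are the highest of many values and a description only, and groups of an organ share a table.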

How the data were processed

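RNA of 4 flower organs under 4 treatments was sequenced in paired reads. The authors aligned reads with HISAT2 2.2.1, per the submitters' processing notes, and deposited FPKM in a separate table for each organ; counter, genome build and annotation are not stated in the labels. Depth is known only relatively. Each organ's 12 libraries were fitted on log2(FPKM + 1) with limma 3.58.1 in R 4.3.3 (package data.table, version 1.17.8), with mean-variance trend and robust moderation, on genes with a mean of at least 1 FPKM in a group. Fold changes are on that scale, which understates changes of low genes. P-values are two-sided, Benjamini-Hochberg adjusted over all genes of an organ and contrast. Organ differences were fitted on all 48 libraries, over 6 organ pairs and 3 stresses. The fit was tested on simulated data. Python 3.11.15, pandas 2.3.3, numpy 2.4.6 and matplotlib 3.10.9 made summaries and figures. The members and lists were chosen with earlier results of these data known; all 10 members are named, and for each reaching 5 FPKM in a group the gene of highest correlation. Alternatives changed the pseudocount, filter, scaling, moderation, block, groups fitted and libraries. No gene name could be paired with an identifier, so other pathway genes and organ markers were not used, and no sequences are shown.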

Additional observations from a re-analysis of the deposited data

Results flagged for a closer look

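The responses below differed between anther and another organ by limma's test of the difference itself over 48 libraries, as anther minus the other organ on the log2 scale. No cause was tested.

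For combined stress against control, GLYMA_19G147400 differed by 1.46 from sepal, 1.51 from ovary and 1.25 from stigma. GLYMA_03G144500 differed by -1.07 from sepal, -1.22 from ovary and -1.45 from stigma. FAD3B differed by 1.93 from sepal, 1.77 from ovary and 1.61 from stigma. FAD3A differed by 1.14 from sepal and 0.68 from ovary, the 0.68 with an adjusted p of 0.0379 and with a value of -0.11 after the median-of-ratios rescaling, which also gave 0.27 (adjusted p = 0.571) against sepal. With the 24 libraries of the 2 organs alone the 0.68 had an adjusted p of 0.108. Without the libraries numbered 1 the difference of FAD3A from ovary was 1.04, still a call, without those numbered 2 it was 0.33 (adjusted p = 0.417), and without those numbered 3 it was 0.66 (adjusted p = 0.132). Without those numbered 1 the difference of GLYMA_19G147400 from stigma was 0.99 (adjusted p = 0.0539).

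For heat against control, GLYMA_19G147400 differed by 1.22 from sepal, 1.55 from ovary and 1.33 from stigma. GLYMA_03G144500 differed by -0.59 from sepal, -0.81 from ovary and -0.93 from stigma. FAD3A differed by 1.36 from sepal, 1.41 from ovary and 1.10 from stigma. FAD3B differed by 1.47 from sepal, 1.01 from ovary and 0.90 from stigma. Without the libraries numbered 1, GLYMA_19G147400 gave 0.99 against sepal (adjusted p = 0.109) and 1.07 against stigma (adjusted p = 0.106), and FAD3B gave 1.04 against ovary (adjusted p = 0.138) and 0.92 against stigma (adjusted p = 0.219). Without those numbered 3, FAD3B gave 0.70 against ovary (adjusted p = 0.199) and 0.59 against stigma (adjusted p = 0.311), and FAD3A gave 0.85 against stigma (adjusted p = 0.142). After the median-of-ratios rescaling FAD3B gave 0.73 against ovary (adjusted p = 0.0700) and 0.65 against stigma (adjusted p = 0.124), and FAD3A gave 0.82 against stigma (adjusted p = 0.0798). With the 24 libraries of the 2 organs alone, FAD3B had adjusted p of 0.0616 against ovary and 0.145 against stigma, and GLYMA_03G144500 0.0735 against sepal. The difference of GLYMA_03G144500 from sepal lost its call whichever number was left out, with adjusted p between 0.066 and 0.150.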

How the results depend on the processing

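The counts of member calls were 14 for combined stress against control, 8 for heat, 0 for water deficit, 1 for combined stress against heat, 14 for combined stress against water deficit, 0 for the interaction and 23 for organ differences. With 1 library left out at a time, these ran from 13 to 15, 7 to 9, 0 to 0, 0 to 2, 11 to 15 and 0 to 0; organ differences ran from 17 to 21 with 1 replicate number left out. The count for combined stress against heat was 0 with no filter, with no trend or robust moderation, and with only the 2 groups compared, and 2 with a filter at 5 FPKM and after median-of-ratios rescaling. The other counts stayed within 1.5 times under all alternatives run. The count for combined stress against water deficit includes the GLYMA_09G111900 call in stigma, which is no independent test.

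The response of FAD3A to combined stress, anther minus ovary, reversed to -0.11 (adjusted p = 0.829) after median-of-ratios rescaling; the cause was not tested. Under that rescaling the organ difference of GLYMA_19G147400 for combined stress was 0.58 against sepal (adjusted p = 0.057) and 0.48 against stigma (adjusted p = 0.127).

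Within an organ, libraries of different treatments with the same replicate number were compared for shared deviation, in 72 pairs. Of these, 6 had a correlation over 0.1, and all 72 ran from -0.26 to 0.28. In anther and stigma each combined-stress and heat pair was positive, from 0.08 to 0.28, and in sepal and ovary such pairs had both signs. Libraries of different organs were not compared in this way. The organ-difference test treats the 48 libraries as separate, so it makes no allowance for any flowers or plants shared between organs. With the replicate number as a block the counts were 14, 8, 0, 2, 12, 0 and 23 in the order above.

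The alternative without anther heat library 3 and anther water-deficit library 2 together was chosen after seeing the data; it gave 7 calls for heat, with FAD3A lost. The 3 libraries a group and the unknown depth limit what low members such as SACPD-C can show.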
